A study of Mus musculus with 16 samples.

Results

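The bodies of the 1000 most transcribed autosomal genes of mouse pancreatic β cells were described in old and young animals by CpG methylation, histone mark regions and RNA. The body of a gene was the stretch from 2 kb past its start to its end. The genes were chosen by their counts: the transcript with most counts stood for each gene, and the 1000 autosomal genes with the highest mean CPM (read counts scaled to the library total) over 5 RNA libraries and a single listed position were kept, of 22869 genes in all. Of the 1000, 967 had a measured body, 17 were too short to have one and 16 held fewer than 10 usable CpGs. Ins1 and Ins2, the insulin genes and the top of the list, were among those with no body beyond 2 kb, as were the hormone genes Sst, Ppy and Pyy. Other genes with at least 1 count numbered 18920 (15950 with a measured body), and genes with no count in any library numbered 1610 (444 with a measured body).

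RNA came from sorted β cells of MIP-GFP/Bl6 mice, in which the insulin promoter drives green fluorescent protein. There were 3 old pools, of 15, 16 and 17 months, and 2 young pools of 4 to 6 weeks (the design text names 3 for young), each library from 5 to 10 mice pooled, by the design text. Chromatin and bisulfite samples came from C57Bl6 mice, with 1 sample per age and assay used here: old animals are labelled 16 to 18 months, although the design text gives 18 to 22 months for the old bisulfite pool, and young animals 4 to 6 weeks. H3K27ac was mapped in young cells only. With a single bisulfite library and a single region list per mark and age, age and library cannot be told apart in those readouts, and no difference in them has a replicate check.

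A transcribed gene in mammals usually has an unmethylated start and a methylated body. RNA polymerase II carries with it the enzyme that sets H3K36me3, and the methyltransferase Dnmt3b is recruited to that mark. Active enhancers, many of which lie inside introns, are less methylated and carry H3K4me1 and H3K27ac, whereas H3K27me3 is the mark of Polycomb repressive complex 2. In β cells the most abundant transcripts encode insulin, other cargo of the secretory granule and the machinery that folds and processes it.

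The start region is shown for 5 of the genes, to set its CpGs beside the bodies described later; these were picked after their values were seen. The sequences are RefSeq promoters (GRCm38.p6), from 250 bases before to 50 bases after the start, 5′ to 3′, with every CG in capitals. Pcsk2 and Mki67 have dense CpGs at the start and a methylated body, Txnip and Tmem215 had a body that was less methylated in the old library, and Gcg marks neighbouring α cells.
Pcsk2, chr2:143545883-143546182, plus strand: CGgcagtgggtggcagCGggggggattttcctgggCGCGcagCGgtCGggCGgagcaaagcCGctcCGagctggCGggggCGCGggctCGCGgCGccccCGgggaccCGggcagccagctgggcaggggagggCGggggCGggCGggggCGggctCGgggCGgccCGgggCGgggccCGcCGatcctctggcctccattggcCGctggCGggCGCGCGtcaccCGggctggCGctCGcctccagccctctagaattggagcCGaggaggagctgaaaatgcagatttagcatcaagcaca
Txnip, chr3:96557707-96558006, plus strand: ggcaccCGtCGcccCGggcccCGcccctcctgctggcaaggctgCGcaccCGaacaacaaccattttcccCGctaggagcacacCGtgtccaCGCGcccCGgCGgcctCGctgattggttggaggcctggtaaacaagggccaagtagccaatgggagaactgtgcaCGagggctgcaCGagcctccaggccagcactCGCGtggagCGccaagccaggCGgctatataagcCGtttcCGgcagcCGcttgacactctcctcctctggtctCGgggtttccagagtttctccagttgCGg
Tmem215, chr4:40471930-40472229, plus strand: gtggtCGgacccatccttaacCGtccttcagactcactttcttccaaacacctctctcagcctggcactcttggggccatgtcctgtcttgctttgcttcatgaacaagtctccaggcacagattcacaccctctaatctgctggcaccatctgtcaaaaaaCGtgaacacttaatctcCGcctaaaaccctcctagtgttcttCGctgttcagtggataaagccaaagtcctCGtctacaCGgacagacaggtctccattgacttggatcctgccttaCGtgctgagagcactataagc
Mki67, chr7:135716330-135716629, minus strand: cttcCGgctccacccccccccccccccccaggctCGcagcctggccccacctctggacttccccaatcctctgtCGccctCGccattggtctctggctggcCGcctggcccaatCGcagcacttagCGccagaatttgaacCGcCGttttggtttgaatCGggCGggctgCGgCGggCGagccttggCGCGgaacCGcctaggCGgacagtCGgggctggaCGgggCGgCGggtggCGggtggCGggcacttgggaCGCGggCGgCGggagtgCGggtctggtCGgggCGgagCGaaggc
Gcg, chr2:62483604-62483903, minus strand: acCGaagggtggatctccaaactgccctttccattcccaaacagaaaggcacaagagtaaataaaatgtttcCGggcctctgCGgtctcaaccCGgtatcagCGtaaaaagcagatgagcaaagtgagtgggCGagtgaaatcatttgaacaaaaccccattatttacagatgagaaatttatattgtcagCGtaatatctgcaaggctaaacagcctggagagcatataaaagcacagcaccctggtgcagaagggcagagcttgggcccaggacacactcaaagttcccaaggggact

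The windows hold 36 CG for Pcsk2, 24 for Txnip, 8 for Tmem215, 32 for Mki67 and 7 for Gcg. The letters CG, which read the same on both strands, occur in 94.6% of the 32851 promoters of that table, with a median of 7 per promoter. The region lists and CpG tables use the build mm9, so a window was given a methylation value only where the CpGs listed around the mm9 start lay at the same offsets as those of the sequence. That held for 500 of the 716 genes whose symbol matched. Their median start methylation was 4.06% in the old library and 4.47% in the young library. Of the 500, 457 were under 20% in both libraries and 14 over 50% in both. The Pcsk2 start stood at 2.86% in the old library and 5.14% in the young library, and that of Txnip at 4.17% and 1.29% in the same order. The Tmem215 start was higher, at 34.8% in the old library and 29.4% in the young library, the opposite direction to its body. The Mki67 start was at 11.4% in the old library and 1.45% in the young library. For Gcg only 5 CpGs were usable, with 31.4% of 70 calls methylated in the old library and 77.3% of 44 calls in the young library.

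Around the start, the most transcribed genes were nearly unmethylated, and methylation climbed over several kilobases into the body. In the first 500 bases past the start, 4.83% of calls were methylated in the old library and 4.77% in the young library. Between 2000 and 2500 bases past the start the level was 44.9% in the old library and 45.2% in the young library, and between 9500 and 10000 bases it was 71.9% and 71.3% in the same order. Other genes with counts reached 63.8% in the old library and 61.0% in the young library between 2000 and 2500 bases, so that the most transcribed genes were the lower ones there in both libraries. In the last 5% of the body the most transcribed genes stood at 83.0% in the old library and 81.7% in the young library, against 79.997% and 78.7% in other genes.

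**Figure D1:**
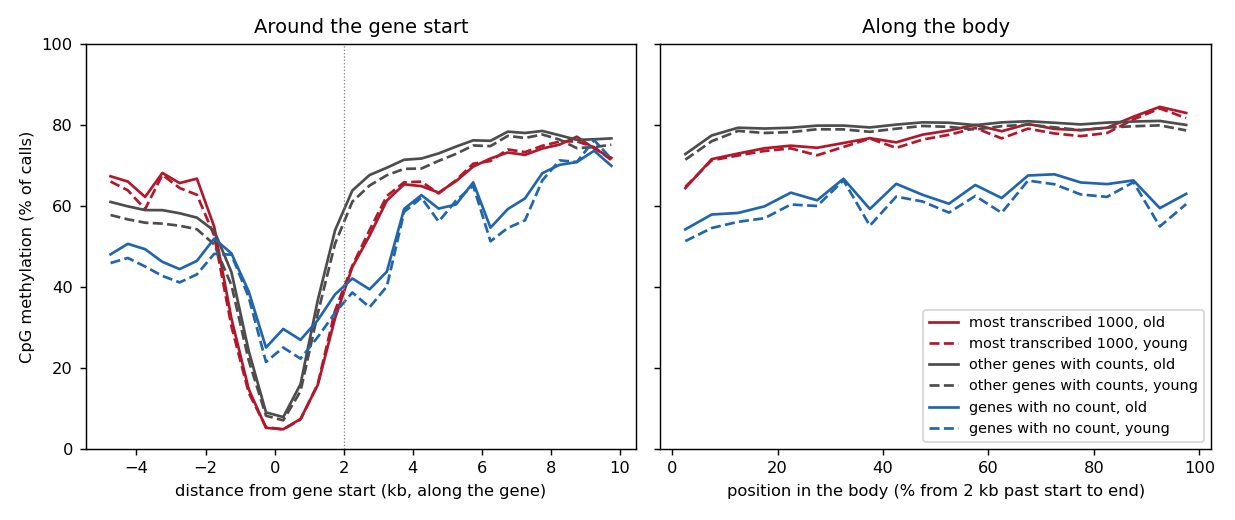
CpG methylation (percent of calls) by distance from the gene start (left, kb; the dotted line marks 2 kb) and along the body in 20 equal bins (right), for the most transcribed 1000 genes (red), other genes with counts (grey) and genes with no count (blue), with solid lines for the old and dashed lines for the young library. The red lines are the lowest in the first 500 bases past the start, at 4.83% in the old and 4.77% in the young library. They are the highest in the last 5% of the body, at 83.0% and 81.7%.

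Per body, the median methylation of the 967 measured bodies was 81.2% in the old library and 81.6% in the young library. The quartiles were 74.0% and 85.7% in the old library and 74.6% and 85.9% in the young library. Other genes with counts had medians of 83.5% in the old library and 83.3% in the young library, and genes with no count 76.4% and 77.7%. Bodies rested on a median of 6664 calls in the old library and 6291 calls in the young library. The calls per CpG were 23.2 in the old library and 21.7 in the young library. Calls from one read are not independent, so intervals cover counting error only.

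Against expression rank, body methylation was highest in the middle. The 94 measured bodies of ranks 1 to 100 had medians of 76.1% in the old library and 76.2% in the young library. Ranks 501 to 1000 had 82.4% in the old library and 82.3% in the young library. The maximum lay at ranks 6001 to 8000, where the median gene had 17.3 CPM, with 86.4% in the old library and 86.1% in the young library. The lowest ranks had 78.2% in the old library and 78.8% in the young library. CPM is not per length, and transcript length was not measured here. The median body, a span on the genome, was 45926 bases in the most transcribed genes, 19216 in other genes and 7129 in genes with no count. The part of length in the ranks was not tested.

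**Figure D2:**
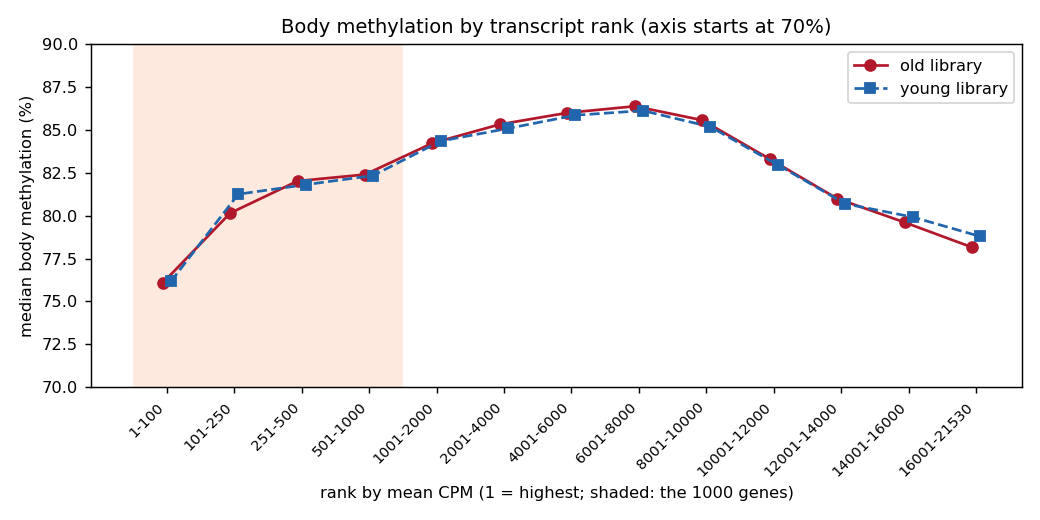
Median body methylation (percent; the axis starts at 70) by rank of mean CPM, in the old (circles) and young (squares) library; the shaded bins are the 1000 genes described. Both libraries peak at ranks 6001 to 8000, at 86.4% in the old and 86.1% in the young library, and are at 76.1% and 76.2% in ranks 1 to 100.

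Low methylation of a whole body was the exception: 45 of the 967 bodies were under 50% in the old library and 38 in the young library. These 4.65% and 3.93% were near the shares over all bodies, 4.63% and 4.94%. Among bodies with at least 50 CpGs, Brd2, a chromatin reader of acetylated histones, was lowest in the young library, at 10.9% in the old library and 10.5% in the young library. Pax6, an islet transcription factor, was at 19.3% in the old library and 17.9% in the young library, and H3K27ac covered 67.3% of its body. Neurod1, another islet factor with a short body of 43 CpGs, was at 6.36% in the old library and 7.59% in the young library. Gnas, an imprinted locus that encodes a G protein subunit, stood at 37.4% in the old library and 30.3% in the young library. At the other end was Mki67, a gene of dividing cells, with 95.2% in the old library and 95.02% in the young library. Gpx3, an extracellular glutathione peroxidase, had 93.6% in the old library and 93.8% in the young library. Short bodies were more often low: 17 of 69 bodies of up to 5 kb were under 50% in the young library, against 1 of 235 bodies over 100 kb. Other genes had the same order, with 12.6% and 0.836% in these length classes. The 6 longest bodies, Nell1, Ptprn2, Nav2, Mast4, Lpp and Vps13b, lay between 75.7% (Ptprn2) and 91.4% (Vps13b) in the old library and between 74.6% and 90.3% in the young library.

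The old and the young library differed little in most bodies. The median difference, old minus young, was -0.10 percentage points in the most transcribed genes, 0.13 in other genes and -0.31 in genes with no count. With equal weight for each CpG the medians were -0.53, -0.22 and -0.68. In that measure 610 of 967 bodies, 63.1%, were lower in the old library, and 54.6% of bodies of other genes. The weighting matters because depth differed with level: CpGs with a mean level under 20% had 30.3 calls in the old library and 31.7 in the young library, and those over 80% had 22.2 and 20.6.

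A body was called when Fisher's exact test on its calls, adjusted over all 17361 bodies with the Benjamini-Hochberg method, passed 0.05 and the difference was at least 5 percentage points. This test compares these 2 libraries and not the ages. It called 70 bodies lower and 38 higher in the old library, 7.24% and 3.93% of 967, beside a background of 5.05% lower and 5.80% higher over all bodies. In the top 100 ranks 17.0% were called lower and 3.19% higher. By length, 21 lower calls lay in the 69 bodies of up to 5000 bases, 31 in the 189 up to 20000, 15 in the 252 up to 50000, 2 in the 222 up to 100000 and 1 in the 235 longer ones. The higher calls numbered 10, 6, 6, 8 and 8 in the same classes. Other genes gave lower calls in 12.05% of bodies of up to 5 kb and 0.111% over 100 kb. With equal weight for each CpG, 69 of the 70 lower and all 38 higher calls kept their sign. Differences of at least 5 points remained in 52 of the lower and 11 of the higher calls. Of the 38 higher calls, 9 were overlapping bodies of the Pcdhg protocadherin cluster, which share CpGs, and without its 22 bodies 29 higher calls and 70 lower calls were left.

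**Figure D3:**
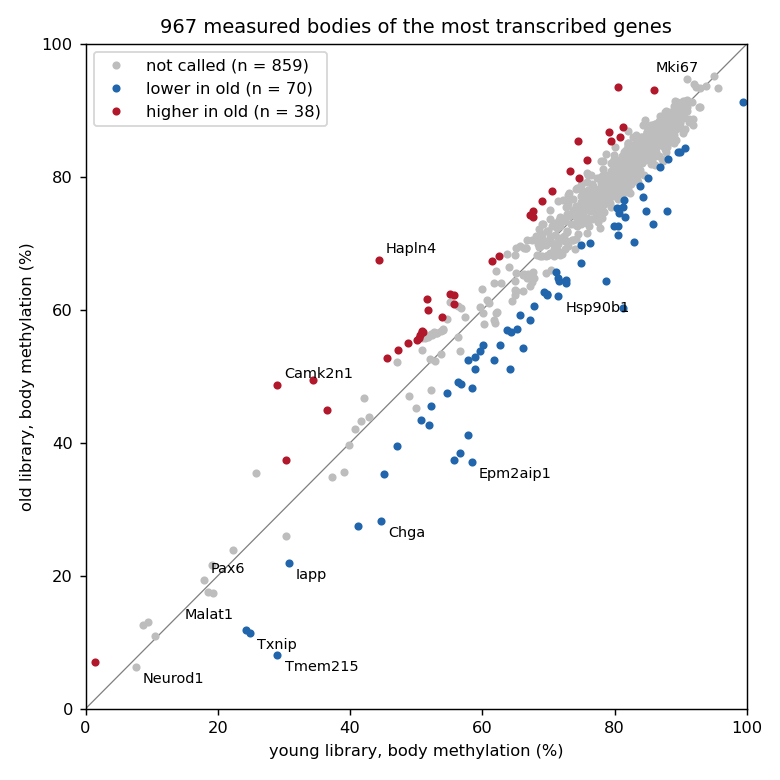
Body methylation in the old library (vertical, percent) against the young library (horizontal, percent) for 967 measured bodies; blue points were called lower (n = 70) and red points higher (n = 38) in the old library, and the line marks equal values. Chga, Iapp, Txnip and Tmem215 lie under the line, and Hapln4 and Camk2n1 above it.

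Several genes of β-cell secretion were among the bodies that were lower in the old library. The counts per gene list that follow stand beside 7.24% called lower over the 967 bodies and 5.05% over all bodies. Shorter bodies were called lower more often, and the part of length in these counts was not tested. Chga encodes chromogranin A, a granule protein, and its body (chromosome 12, 103795179 to 103803237, mm9, plus strand) was at 28.2% in the old library and 44.7% in the young library (95% Wilson intervals 26.5 to 30.1 and 42.6 to 46.8; adjusted p = 2.13e-29, Fisher's exact test). Of its 93 CpGs, 49 were under 20% in the old library and 30 in the young library. Iapp, which encodes the islet amyloid polypeptide released with insulin, stood at 22.0% in the old library and 30.7% in the young library over 22 CpGs (adjusted p = 0.019, Fisher's exact test). Of the 12 measured bodies of granule and prohormone genes, these 2 were called lower and none higher. In all, 9 of the 12 were lower in the old library by pooled calls, and all 12 with equal weight for each CpG, Scg2 by 0.02 points only. Their medians were 70.6% in the old library and 73.3% in the young library. Pcsk2, the prohormone convertase whose start is printed above, was at 70.4% in the old library and 72.5% in the young library along 268.15 kb.

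Genes of glucose sensing and excitation had 3 lower calls and no higher call in 7 bodies, with medians of 62.9% in the old library and 65.1% in the young library. Slc2a2, the glucose transporter of β cells, was at 56.9% in the old library and 63.7% in the young library. G6pc2, a glucose-6-phosphatase of the islet, was at 49.2% in the old library and 56.3% in the young library. Ucn3, a peptide of mature β cells, was at 74.95% in the old library and 84.8% in the young library. Abcc8, the sulfonylurea receptor of the potassium channel, was at 61.3% in the old library and 64.4% in the young library, below the 5 points a call needs.

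Of 18 measured bodies of endoplasmic reticulum folding genes, 4 were called lower and none higher. Their median body was 14283 bases, and of all bodies of the 1000 genes between 5 and 20 kb 16.4% were called lower. Hsp90b1, an abundant chaperone, was at 62.1% in the old library and 71.5% in the young library. Ero1lb, an oxidase of disulfide bonds, was at 48.3% in the old library and 58.5% in the young library. Calr and Hyou1 were the other lower calls. Hspa5, the main chaperone of this compartment, had a low body in both, at 13.1% in the old library and 9.52% in the young library. Among 6 exocytosis bodies 1 was called lower, Syt13, at 45.6% in the old library and 52.3% in the young library. Of 6 respiratory chain bodies, with a median of 8677 bases, 2 were called lower, and of 7 glycolysis and citrate cycle bodies 1. Rpl4, a ribosomal protein gene, was called lower too, at 71.3% in the old library and 80.6% in the young library. None of 6 bodies in a list of common cytoskeleton, translation factor and cytosolic chaperone genes was called either way. Their median body was short, at 2705.5 bases, and their median difference was 2.64 points, with 1 of the 6 lower in the old library. The largest difference among them was 9.65 points. No proteasome gene ranked among the 1000.

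Several of the called bodies with the largest differences held few CpGs, but not all: Npcd, named below, held 684 CpGs outside H3K27ac regions. Epm2aip1 had the largest drop, to 37.1% in the old library, against 58.4% in the young library over 23 CpGs. Serp1 and Tmem215 followed, with 11 and 14 CpGs. The Tmem215 body (chromosome 4, 40421213 to 40422686, mm9) stood at 8.13% in the old library and 29.0% in the young library, and 13 of its 14 CpGs were under 20% in the old library against 7 in the young library. Txnip, which encodes a thioredoxin-interacting protein induced by glucose, was at 11.4% in the old library and 24.8% in the young library. Slc39a7, Btg2, Srsf7, Sqle and Mcl1 completed the 10 largest drops together with Chga. With equal weight for each CpG the Srsf7 difference was -2.22 points, under the size a call needs. The largest rise was in Hapln4, a link protein of extracellular matrix (chromosome 8, 72609428 to 72614761, mm9), at 67.5% in the old library and 44.4% in the young library over 143 CpGs. Camk2n1, an inhibitor of a calmodulin-dependent kinase, was at 48.7% in the old library and 29.0% in the young library. Aars, a transfer RNA synthetase, was at 49.5% in the old library and 34.4% in the young library, but the difference was 1.06 points with equal weight for each CpG. Dazap2, Arf4, Ppapdc1b, Npcd, Ppp1r1a, Ly6e and Bhlha15 made up the rest of the 10 largest rises, between 7.56 and 13.0 points. With equal weight for each CpG the rises of Npcd and Ppapdc1b were 0.93 and 3.53 points, under the size a call needs.

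Marks of active elements were common in these bodies and H3K27me3 was rare in the young list. Young H3K27ac regions touched 541 of 967 bodies, beside 17.5% of all bodies, and covered 3.46% of their length, against 0.756% in other genes. H3K4me1 regions touched 599 bodies in the old list and 668 in the young list, beside 32.8% and 44.4% of all bodies. By length H3K4me1 covered 0.326% of these bodies in the old list and 0.550% in the young list, against 0.1905% and 0.415% in other genes, whose bodies are shorter. H3K27me3 regions touched 331 bodies in the old list and 57 in the young list, beside 55.4% and 33.7% of all bodies. H3K27me3 covered 7.42% of the body length in the old list and 0.988% in the young list, against 25.7% and 16.2% in other genes.

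For old H3K27me3 the design text mentions a pair of replicas, and it is not known if the single list was made from both. The lists differ in extent: the old H3K27me3 list covers 649152000 bases of the genome and the young list 451824000. When the old list was reduced to its 16201 best-scored regions, to match the young length, 150 of the 967 bodies kept a region and 3.13% of the length was covered. Over all bodies 39.4% kept a region then, and 17.1% of the length was covered. That reduction was chosen after seeing the data. Of the 331 bodies, 289 (of 967 measured) had a region in the old list only, beside 3940 of the 15950 bodies of other genes. Among the 289 were the whole bodies of Chga, Btg2, Slc39a7, Atf5, Meg3 and AW555464. The bodies of Gcg, Fosb, Eef2 and Sfi1 were covered over their full length in both lists, and that of Gpx3 in the young list only. Meg3 is an imprinted noncoding RNA, and Gcg encodes glucagon, the hormone of α cells.

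**Figure D4:**
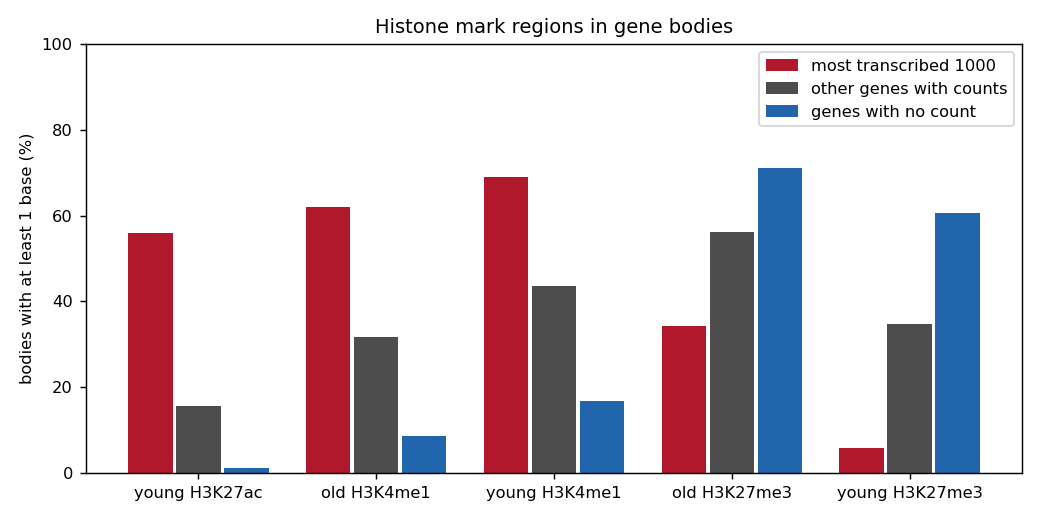
Share of measured bodies (percent) with at least 1 base of a region of each mark and age list, for the most transcribed 1000 genes (red), other genes with counts (grey) and genes with no count (blue). Red bars stand above grey ones for H3K27ac and H3K4me1 and below them for both H3K27me3 lists.

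Inside the bodies, the CpGs in H3K27ac regions had low methylation and were lower in the old library, while those outside any region differed little. Pooled over the bodies, 30407 CpGs in young H3K27ac regions had 34.8% in the old library and 36.5% in the young library. With equal weight for each CpG they had 40.2% in the old library and 44.5% in the young library. The share of these CpGs under 20% was 42.3% in the old library and 35.9% in the young library. CpGs in H3K4me1 regions of both ages, outside H3K27ac, were at 45.2% in the old library and 47.8% in the young library. CpGs in no region were at 83.2% in the old library and 82.6% in the young library, and those with H3K27me3 in the old list only at 81.0% and 79.9%. The difference inside H3K27ac regions, with equal weight for each CpG, was -4.29 points in the most transcribed genes and -3.80 points in bodies of other genes.

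Body by body the order was the same. In 381 bodies with at least 10 CpGs both inside and outside H3K27ac regions, the inside was below the outside in 379 in the old library and in 377 in the young library. The median inside was 39.4% in the old library and 45.1% in the young library. The median outside was 81.5% in the old library and 81.7% in the young library. Of the 381, 297 were lower in the old library inside the regions and 176 outside them. The 381 include the 22 Pcdhg bodies, which share the CpGs of the same regions, and without them 277 of 359 were lower inside and 176 outside. In Slc2a2 the 55 CpGs inside stood at 25.8% in the old library and 48.1% in the young library, and the 183 outside at 71.2% and 69.4%. In Maml3, a coactivator of Notch signalling with the most H3K27ac bases of any body, the 839 CpGs inside were at 38.6% in the old library and 46.0% in the young library. Its 4088 CpGs outside were at 82.7% in the old library and 83.4% in the young library. Hsp90b1 went the other way, with 30.3% in the old library and 21.9% in the young library inside, over 12 CpGs, and 66.9% and 76.8% outside. In Chga 84 of 93 CpGs lay inside.

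Bodies covered by H3K27ac over more than 50% of their length numbered 17, with medians of 28.2% in the old library and 30.7% in the young library, and 8 were called lower and 2 higher. Of the 132 bodies with 10 to 50% coverage 19 were called lower and 1 higher. Of the 392 bodies with up to 10% coverage 12 were called lower and 18 higher, with a median difference of 0.14 points. Of the 426 bodies with no H3K27ac region 31 were called lower and 17 higher. From most to no coverage, 47.1%, 14.4%, 3.06% and 7.28% were called lower, beside 18.2%, 7.58%, 1.62% and 5.02% of bodies of other genes. Called higher were 11.8%, 0.758%, 4.59% and 3.99%, beside 11.4%, 9.68%, 4.49% and 5.87% of bodies of other genes. The classes differ in length too, with median bodies of 5977, 30652, 85931 and 27039 bases from most to no coverage. In other genes these medians were 2644.5, 16429, 60588 and 16533 bases. The part of length in the counts and shares was not tested.

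RNA was compared between the old and young libraries. The same counts chose the genes, by a mean over 3 old and 2 young libraries that weighs old pools more, so the counts of called genes and their median are a description and not independent of the choice. Gene counts per library were 26670334, 33562822 and 23559908 in old pools and 6377619 (the shallower) and 12892123 (the deeper) in young pools, of which the 1000 genes took 60.4 to 68.4%. In edgeR's quasi-likelihood test, with Benjamini-Hochberg adjustment over 15544 genes and a threshold of 0.05, 137 of the 1000 rose and 34 fell in old pools, 13.7% and 3.40%. Over all genes tested 3.17% rose and 7.93% fell. The median log2 change was 0.35 in the 1000 genes and -0.05 over all genes tested. Of the 137 that rose, 76 had a young mean under the limit of the list, and of the 34 that fell, 26 had an old mean under it, so these entered through the group in which they were high. The counts depend on single libraries: without old library 1, 2 or 3, counts of 8, 10 and 36 of the 1000 rose. Over all genes tested 0.268%, 0.337% and 0.630% rose then. In the same order 15, 15 and 23 of the 1000 fell, beside 1.95%, 2.63% and 1.81% of all genes tested. Without the shallower or the deeper young library the median log2 change of the 1000 genes was 0.38 and 0.37. Over all genes tested it was 0.06 and -0.02. Where 1 young library was left, it was assumed to vary like the old ones. With DESeq2's size factors 106 rose and 46 fell, beside 2.42% and 8.80% of all genes tested. The libraries stand for pools of sorted cells, and fewer cells of a type and less RNA per cell cannot be told apart.

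Genes of secretion and folding were among those that rose. Iapp had 19167, 20139 and 12196 CPM in old pools, against 7430 and 7917 CPM in young pools (log2 change 1.31, SE 0.27, edgeR adjusted p = 0.0245). All 3 old pools lay above both young pools. Of 20 endoplasmic reticulum folding genes among the 1000, 11 rose and none fell, beside 13.7% of the 1000 and 3.17% of all genes that rose. Without old library 1 only 8 of all 1000 genes rose, so not all of these 11 calls held there. Loss of a call was followed gene by gene only for the largest rises and falls. Hsp90b1 had 2863, 3257 and 2409 CPM in old pools, against 1648 and 1018 CPM in young pools (log2 change 1.24, SE 0.28, edgeR adjusted p = 0.031). Of 14 granule and prohormone genes 4 rose (Iapp, Scg2, Slc30a8 and Scg5) and none fell, beside the same shares. Of all 137 that rose, 76 had a young mean under the limit of the list. How many of the 11 and the 4 were among those 76 was not counted. Slc2a2 had 544, 436 and 385 CPM in old pools, against 270 and 212 CPM in young pools. The largest rises were those of Atf5, a stress transcription factor, A330076H08Rik, Cldn8, Gpr158 and Ik. Atf5 had 364, 347 and 328 CPM in old pools, against 54.6 and 80.1 CPM in young pools (log2 change 2.52, SE 0.26, edgeR adjusted p = 0.0044), while its body was at 93.4% in the old library and 95.6% in the young library. Cldn8 and Gpr158 lost their call without any one of the 3 old libraries, with edgeR adjusted p between 0.0593 and 0.0935.

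The 5 largest falls were those of Col1a1, Col1a2, Col3a1, Mki67 and Sparc, which passed the limit of the list through the young pools alone, so that a large fall was fixed by the choice. Mki67 had 1.91, 1.22 and 1.87 CPM in old pools, against 368 and 329 CPM in young pools (log2 change -7.55, SE 0.33, edgeR adjusted p = 0.000189). Its body, at 95.2% in the old library and 95.02% in the young library, was not called. Col1a1, a collagen of stromal cells, had 1.09, 0.417 and 0.679 CPM in old pools, against 57.1 and 1475 CPM in the shallower and deeper young pools. Its body was at 78.3% in the old library and 76.6% in the young library. Col1a2, Col3a1 and Sparc also fell and were highest in the deeper young pool. Without old library 3, Col3a1 lost its call (edgeR adjusted p = 0.0576). Gcg had 682, 1453 and 1346 CPM in old pools, against 1766 and 32655 CPM in the shallower and deeper young pools. The summed level of 5 stromal markers was 2.38 to 5.77 CPM in old pools, against 194 and 3394 CPM in young pools, and all 5 fell. The 9 β-cell markers summed to 330327 to 389335 CPM in old pools, against 332564 and 275322 CPM in young pools. The summed level of 8 markers of α, δ and PP cells was 1104 to 2155 CPM in old pools, against 5378 and 44016 CPM in young pools, and 5 of the 8 fell. For 10 acinar markers the sums were 74.7 to 127 CPM in old pools and 1463 and 2245 CPM in young pools, and 8 of the 10 fell. For 5 endothelial markers they were 24.7 to 45.2 CPM in old pools and 346 and 655 CPM in young pools, and all 5 fell. Of 4 duct markers 3 fell, and of 4 immune markers 1. The part of these cells in the RNA changes was not tested, and the cell makeup of the bisulfite pools was not measured.

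The body difference was set beside the RNA call. Of 131 measured bodies of genes that rose, 22 were called lower and 2 higher in the old library, and the median difference was -0.66 points. Of 31 bodies of genes that fell, none was called lower and 1 higher, with a median difference of 0.91 points. Of 805 bodies of genes with no RNA call 48 were lower and 35 higher, with a median of -0.09 points. With equal weight for each CpG the medians were -1.19, 0.43 and -0.49 points. Of the 34 listed genes that fell, 26 had an old mean under the limit of the list. Of the 137 that rose, 76 had a young mean under it. The part of this choice in the body differences was not tested. Among other genes that rose, 13 of 307 bodies were called lower and 15 higher, with a median difference of 0.22 points. Among other genes that fell, 41 of 1106 bodies were called lower and 61 higher, with a median of 0.12 points. With equal weight for each CpG the medians of these other genes were -0.16 and -0.28 points, in the same order. Tmem215 rose in RNA and its body was called lower in the old library. It had 289, 290 and 202 CPM in old pools, against 58.6 and 89.9 CPM in young pools (log2 change 1.96, edgeR adjusted p = 0.0092). Chga and Txnip had a lower body in the old library with no RNA call, with log2 changes of 0.42 and -0.45. Camk2n1 rose in RNA with a body that was higher in the old library.

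**Figure D5:**
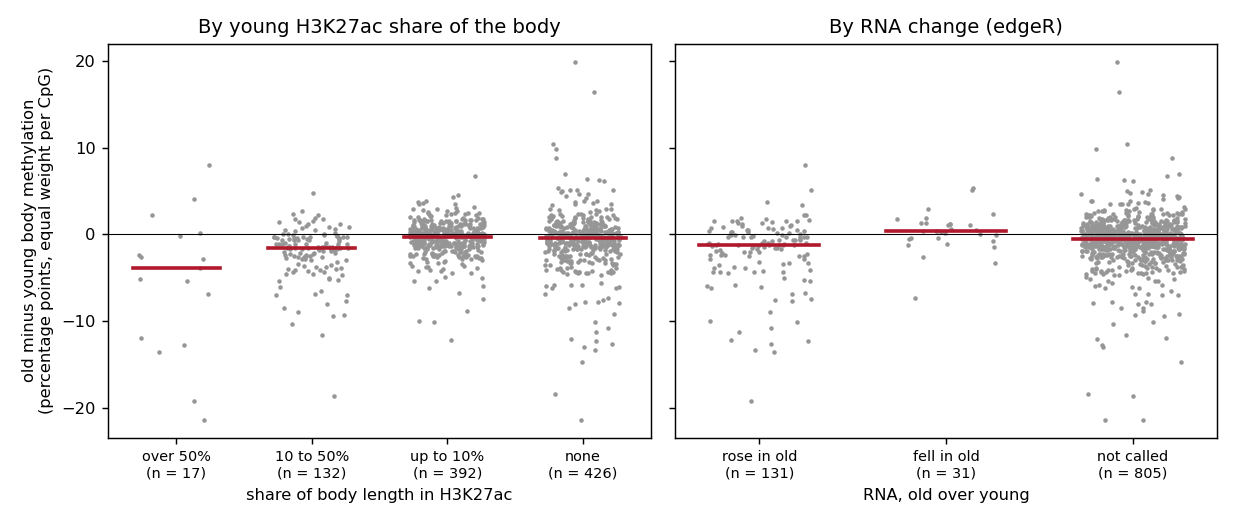
Old minus young body methylation (percentage points, equal weight for each CpG) of the 967 bodies by the share of body length in young H3K27ac regions (left) and by RNA call (right); points are bodies and red bars medians. The medians are -3.92 points for bodies over 50% covered and -0.40 for uncovered ones, and -1.19 for genes that rose, 0.43 for those that fell and -0.49 for those with no call.

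Some bodies share CpGs or reads, so they are not separate measurements. Of the 967, 43 overlap another body of the set, and the 22 Pcdhg genes, a protocadherin cluster with shared constant exons, all do. Pisd-ps1 and Pisd-ps3 had identical methylation values, 68.2% in the old library and 69.9% in the young library. In 16 of the 1000 genes 1 library gave more than 50% of the summed CPM, and 6 had under 10 CPM in their lowest library. At the limit of the list, Npcd and Gm608 were the last inside, both at 127.43 CPM, and Fmnl2 and Cacna2d1 the first outside, both at 127.42 CPM.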

How the data were processed

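RNA values are the authors' deposited read counts, one whole number for each RefSeq transcript and library, and CPM were computed from these counts over the chosen transcripts. The deposited CpG tables hold a methylated fraction and a coverage per CpG, from which methylated calls were recovered as whole numbers. The deposited HOMER score of H3K4me1 and H3K27ac peaks, per the file headers, and the unlabelled score of the deposited H3K27me3 lists were used to order regions and for nothing else. A deposited transcript table with a signal of unknown scale gave positions only, since 2 of its columns were identical in 100% of entries. The build is mm9, and Bowtie 0.12.7, CASAVA 1.8.2, HOMER, STAR and edgeR were used at unnamed steps, per the submitters' processing notes. Not given in the sources used here are the H3K27me3 caller, the strand setting of the counts and the bisulfite filters.

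CpGs with 5 to 200 calls in both libraries were used, and a body needed at least 10 of them. The median autosomal CpG had 18 calls in the old library and 16 in the young library. RNA was tested with edgeR 4.0.16 in R 4.3.3 (TMM, filterByExpr, two-sided, all 5 libraries), with DESeq2 1.42.0 as an alternative. Bodies were tested with Fisher's exact test in SciPy 1.17.1, two-sided. Both tests were also run on simulated data, with independent calls for bodies and the same spread for every gene. Real calls from one read are not independent and single libraries moved the RNA counts. These runs therefore do not show how often the calls here are wrong. The genes and lists were chosen with earlier results of these data known. Genes were named by a rule on rank, extreme body methylation, body length, mark coverage and RNA change, or as list members. Fosb, Pisd-ps1 and Pisd-ps3 fall outside it and were picked after their values were seen. Input libraries were not analysed here. A gene and the count of its list are not reported here.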

Additional observations from a re-analysis of the deposited data

How the results depend on the processing

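Taking the body from the start, which includes the start region, gave medians of 55.4% in the old and 51.8% in the young library. The median difference was 2.28 points. In 999 bodies there were 45 lower and 245 higher calls, beside 5.17% and 22.4% over all bodies. From 5 kb past the start the medians were 83.0% in both libraries (82.95% old, 83.01% young). There 44 of 903 bodies were called lower, beside 4.62% over all bodies, and 35 higher, beside 5.23%. In both of these settings the lower calls were near their share over all bodies. Outside marked regions the medians were 83.6% old and 83.7% young. Equal weight for each CpG gave 82.3% in the young library and a difference of -0.53 points. It left 12 higher calls, beside 2.68% over all bodies. Bodies that overlap no other gene gave 16 higher calls in 682, beside 5.31% over all such bodies. Leaving out the Pcdhg bodies, an alternative chosen after seeing the data, gave 70 lower and 29 higher calls. A limit of 10 points left 17 lower and 5 higher calls in 967 bodies, beside 1.11% and 1.14% over all bodies. The adjusted p alone gave 249 and 218, beside 18.9% and 23.3%. At least 500 bases of overlap left 121 bodies with H3K4me1 in the old list and 292 in the young list. Over all bodies the shares were 4.12% and 13.8%. The better-scored 50% of each list left 294 bodies with H3K27ac and 176 with old H3K27me3, and the old list at the young length 150. The shares over all bodies were 9.75%, 42.0% and 39.4% in the same order. For RNA, DESeq2 called 225 of the 1000 higher and 75 lower, and leaving out 1 library gave 8 to 251 higher and 15 to 60 lower. Size factors of DESeq2 moved the median log2 change of all genes to -0.17 and of the 1000 genes to 0.23. With the body taken from the start, Serp1 turned to 2.20, Tmem215 to 0.35, Srsf7 to 1.52, Txnip to 0.95, Ppapdc1b to -2.96 and Bhlha15 to -1.67 points, and from 5 kb past the start Ppp1r1a to -1.15 points. The cause was not tested beyond the start region that such a body includes. Of the 1000 genes, 979 were also chosen by TMM-scaled levels with equal weight for each age. No paired analysis was possible because the young columns carry no replicate number. One bisulfite library per age, short bodies with few CpGs and the shallow young RNA library limit precision.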
